A study of Mus musculus with 8 samples.

Results

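The regions described here were stretches of the mouse genome that lay away from gene ends and from CpG-dense sequence. Their mean methylation level over the measured CpGs was intermediate in kidney progenitors. The autosomes were divided into 1 kb tiles, and 1460 of 36513 tiles (4.00%) met the rule. A tile needed at least 3 CpGs with at least 10 reads in each of 8 libraries, fewer than 30 CpG positions in any library, no tile of 30 or more CpG positions within 2 kb, and at least 5 kb to both ends of every gene. Those conditions left 10296 distal CpG-poor tiles, and the 1460 were the ones whose mean methylation level in the unrestricted libraries was at least 20% and under 60%. They made up 14.2% of the distal CpG-poor tiles. Another 2600 lay below 20% and 6236 at 60% or more. Since the tiles were chosen by the levels measured in the unrestricted libraries, those levels are a description, and so is every count of tiles that differed between the diets.

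The cells were nephron progenitors, the kidney stem cells that express the transcription factor Six2 and give rise to nephrons. They were sorted by flow cytometry for the green fluorescence of the Tg(Six2-EGFP/cre)Amc transgene, in which the Six2 promoter drives a fused reporter and Cre recombinase, from embryonic kidneys at stage E17.5. All embryos were heterozygous for the transgene and came from outbred CD1 wild-type dams of 8 to 10 weeks, so the unrestricted controls carry it too. Dams of the restricted group received 70% of the average daily food intake during pregnancy, dams of the unrestricted group ate freely, and each group had 4 libraries. Whether each library was made from 1 embryo, 1 litter or a pool is not labelled, and kidneys were not separated by sex, so that p-values refer to the variation of these 8 libraries alone, which may be technical. The depth was 16045992 to 37305007 reads over CpG cytosines per library.

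Reduced representation bisulfite sequencing reads short restriction fragments after bisulfite has turned unmethylated cytosines into thymines, so it samples CpG-rich sequence and few of the CpGs outside it. Most CpGs far from promoters are methylated in mammalian cells. Enhancers, the distal elements that bind transcription factors and raise the expression of a gene over a distance, often have lowered methylation, and intermediate levels are also seen at imprinted regions, where a single parental copy is methylated, and where cells of a mixture differ. Methylation alone does not mark an enhancer. No chromatin or expression data were analysed here, so the tiles are called intermediate distal tiles and not enhancers. A CpG that is TpG in the DNA of a mouse gives the same reads as an unmethylated CpG, and CD1 mice are genetically diverse. The part of sequence variants in the levels was not tested.

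The defining markers of the progenitors were checked as far as DNA methylation allows. The measured CpGs near the ends of Six2 (68 CpGs) were at 0.108% in unrestricted and 0.162% in restricted libraries, and those near Wt1, Sall1, Gdnf and Itga8 were all under 0.25% in both groups. Pax2 was at 2.12% and 2.31%. Unmethylated gene ends are common to many cell types, so this does not identify the cells. No CpG was measured near the ends of Eya1, Osr1 and Meox1.

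The DNA sequence of the tiles could be read only where a tile overlapped the short window that the RefSeq table holds around an annotated transcript start. This held for 8 of the 1460 tiles (0.548%), against 138 of the tiles below 20% (5.31%) and 9 of those at 60% or more (0.144%). Such starts lie inside a gene, since the outer gene ends were excluded. In 2 of the 8 tiles a measured CpG lay in the window, at internal starts of Slc6a9, which encodes a glycine transporter, and of Arpp21, which encodes a cyclic-AMP-regulated phosphoprotein. These windows (RefSeq, GRCm38.p6) are printed because they show how levels changed from one CpG to the next inside a tile. Capitals mark the measured CpGs. The first is chr4:117849100-117849399 on the plus strand and the second chr9:112187717-112188016 on the minus strand.
Slc6a9 start window: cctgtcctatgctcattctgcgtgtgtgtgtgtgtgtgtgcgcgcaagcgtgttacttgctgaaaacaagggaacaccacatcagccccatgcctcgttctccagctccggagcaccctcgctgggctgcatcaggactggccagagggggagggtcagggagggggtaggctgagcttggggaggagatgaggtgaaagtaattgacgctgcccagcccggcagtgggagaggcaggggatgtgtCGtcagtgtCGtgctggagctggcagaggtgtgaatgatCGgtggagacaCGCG
Arpp21 start window: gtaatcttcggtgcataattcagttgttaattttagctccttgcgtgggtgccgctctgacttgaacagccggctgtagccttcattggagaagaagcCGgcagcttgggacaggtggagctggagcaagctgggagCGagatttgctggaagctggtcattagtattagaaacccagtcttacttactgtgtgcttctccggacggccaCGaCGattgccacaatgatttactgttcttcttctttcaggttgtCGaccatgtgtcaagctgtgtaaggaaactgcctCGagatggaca

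In the Slc6a9 window, 5 of 14 CpGs were measured, with 16 to 47 reads per library. Bases are counted from the 5′ end of the printed sequence. The CpGs at bases 247 and 256 had unrestricted levels of 6.62% ± 4.64 and 8.67% ± 3.84 (SD, n = 4, as for all group values here). The next CpG, at base 286, was at 32.0% ± 7.97, and those at bases 297 and 299 were at 60.7% ± 14.7 and 41.1% ± 6.67. Levels thus went from 6.62% to above 40% within this short stretch, and the tile as a whole was at 29.1% ± 2.63. Its restricted level was 27.6% ± 1.84. In the Arpp21 window the CpG at base 138 was at 49.4% ± 4.34 and the CpG at base 99 at 19.1% ± 7.90. The 4 CpGs at bases 211, 214, 256 and 290 had unrestricted means of 5.45 to 8.16%. The whole Arpp21 tile, with 8 CpGs, was at 23.6% ± 1.98 unrestricted and 24.9% ± 5.63 restricted. In the Slc6a9 window a low stretch thus lay beside CpGs of intermediate level and a CpG of 60.7%. In the Arpp21 window a low stretch lay beside a CpG of 49.4%.

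The same was found across the tiles: an intermediate tile was in most cases a mixture of CpGs of unlike level. The 1460 tiles held 6685 measured CpGs, of which 3306 (49.5%) had an unrestricted level of 20% to under 60%, 1864 (27.9%) lay under 20% and 1515 (22.7%) at 60% or more. Only 142 tiles (9.73%) had every CpG in the range of 20% to under 60%. In 612 tiles (41.9%) a CpG under 20% and a CpG of 60% or more occurred together, and in 199 tiles no CpG was in the range although the tile's mean was. The range over the CpGs of a tile had a median of 51.0 percentage points. The SD over the CpGs of a tile had a median of 22.3 points, where counting error at each CpG's own level would give 3.70. It was 2.01 points in the distal tiles below 20% and 5.39 points in those at 60% or more. Levels near either end leave less room for spread, and no adjustment was made for that.

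Neighbouring CpGs differed more the farther apart they were. For adjacent measured CpGs less than 20 bp apart, the median absolute difference in unrestricted level was 12.99 points over 2326 pairs. It was 19.1 points for pairs 20 to 49 bp apart (1770 pairs), 23.3 points for pairs 50 to 99 bp apart (822) and 30.1 points for pairs at least 100 bp apart (307). In distal tiles below 20% the 4 medians ran from 0.658 to 2.46 points, and in tiles of 60% or more from 3.46 to 6.14 points. CpGs close together are read on the same DNA fragments, so their errors are shared. There were 131 tiles with at least 2 CpGs under 20% and at least 2 of 60% or more. With the CpGs between these levels left out, 76 of them (58.0%) changed level only 1 time along the tile. In these 76, low CpGs lay on one side and high ones on the other. The other 55 switched back and forth. The share that a random order of the CpGs would give was not computed.

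**Figure D1:**
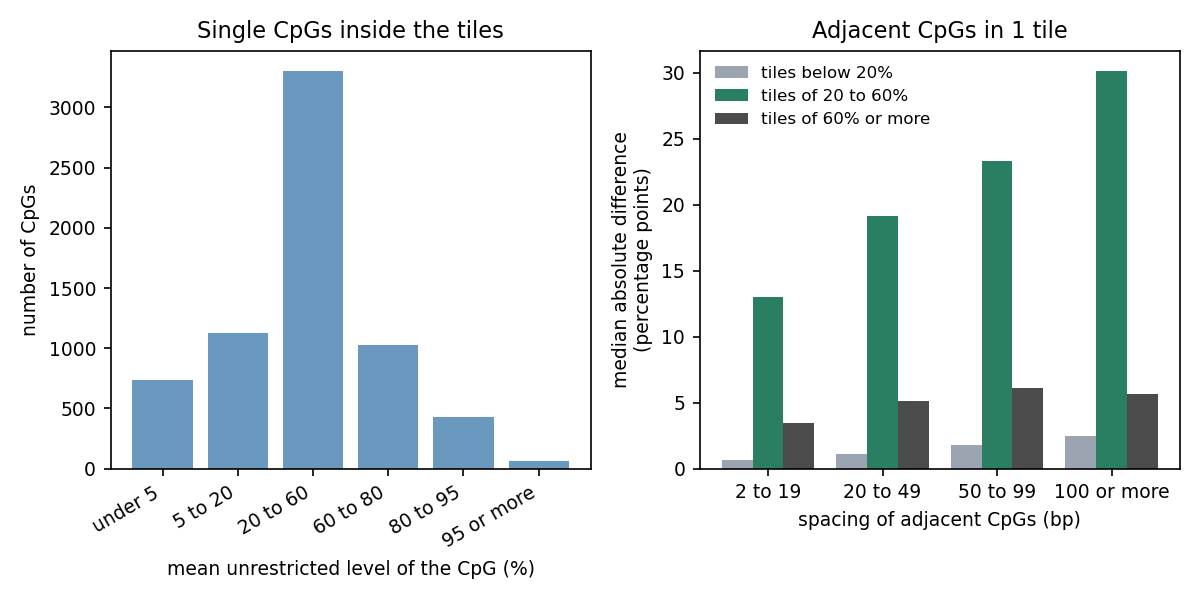
Left: number of the 6685 measured CpGs of the intermediate distal tiles by their mean unrestricted level (%); 3306 lie at 20% to under 60%. Right: median absolute difference in unrestricted level (percentage points) of adjacent CpGs in the same tile by their spacing (bp), for distal CpG-poor tiles of 3 level classes; in the intermediate tiles it was 12.99 points at the closest and 30.1 points at the widest spacing.

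CpGs without a single methylated read in any library were a part of this mixture. There were 244 of them among the 6685 (3.65%), in 184 tiles (12.6%). Their reads over all libraries numbered at least 111 and in the median 179, which allows a level of up to 2.70% and 1.68%. Such CpGs made up 27.8% of the CpGs in distal tiles below 20% and 0.771% of those in tiles at 60% or more. In 158 of the 1460 tiles one stood together with a CpG of 60% or more, and 135 tiles had exactly 1 CpG under 20% beside at least 2 of 60% or more. Map4, which encodes a microtubule-associated protein, held an example. In its tile (chromosome 9, 110052001 to 110053000) the CpGs at 110052473 and 110052573 were at 1.16% and 0% in the unrestricted group, while the CpG at 110052483, between them, was at 71.5%. Without the CpGs at 0 in all libraries the mean diet difference over the tiles that still met the rule was -0.682 points, against -0.686 points with them.

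By position, a gene body held 885 of the intermediate tiles (60.6%), and that of a protein-coding gene held 811. The share inside a gene body was 60.2% for distal tiles below 20% and 52.9% for those of 60% or more. Introns and exons were not told apart, because the gene table used holds no exons. The 575 tiles outside genes lay a median of 17.3 kb from the closest gene, against 24.4 kb for tiles of 60% or more and 15.5 kb for tiles below 20%. Among them 25 were over 100 kb away from any gene. Levels inside and outside gene bodies were alike, at 40.3% ± 0.742 and 39.9% ± 0.733 in the unrestricted group. In the restricted group they were 39.7% ± 1.07 and 39.1% ± 1.22.

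Nearby tiles often had another level. For 372 intermediate tiles another measured tile began within 5 kb. That neighbour was below 20% in 161 cases (43.3%), at 20% to under 60% in 83 (22.3%) and at 60% or more in 128 (34.4%). Neighbours of distal tiles below 20% were themselves below 20% in 69.4% of 936 cases, and neighbours of tiles at 60% or more were themselves so in 67.2% of 1161. Among tiles with such a neighbour, it was intermediate for 13.2% of the distal tiles below 20% and 11.8% of those at 60% or more. For the intermediate tiles, whose class is the smallest of the 3, the share was the 22.3% given above. No test of these shares was made. By chromosome, their share of the distal CpG-poor tiles went from 9.71% on chromosome 14 to 19.6% on chromosome 11.

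The 1460 tiles named 1159 different genes, each as the gene that holds the tile or otherwise the gene with the closest end, passing over unnamed gene models where a named gene could be given. Grik3, a kainate-type glutamate receptor subunit, had 7 of its 13 distal tiles in the range. They lay on chromosome 4 between 125364001 and 125849000, 3 of them inside the gene, with unrestricted levels of 22.2 to 53.2%. Their mean was 43.3% unrestricted and 42.4% restricted. Each of 5 other genes had 5 such tiles, namely Adgrd1 (an adhesion G protein-coupled receptor), Gse1, Mdga1, Tcf7l2 and Wwox. For Adgrd1 they were 5 of 10 distal tiles and all lay outside the gene, 30.4 to 145 kb away. Gse1 had its 5, of 22 distal tiles, inside the gene body. Long genes can hold more tiles, and these counts were not adjusted for gene length.

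Tiles of these genes went in both directions between the diets. All 5 tiles of Wwox, an oxidoreductase with WW domains, were lower in the restricted group, with means of 42.3% and 38.2%, and none of them reached an unadjusted p under 0.05 (smallest 0.0604). At Tcf7l2, the transcription factor at the end of the Wnt pathway, 2 of 5 were lower and the means were 38.0% unrestricted and 38.5% restricted. Mdga1, a cell adhesion protein of neurons, had 4 of 5 lower (37.0% and 35.3%), 1 of them with an unadjusted p of 0.0256 in the logistic model across all tiles (adjusted p = 0.769). The 58 runs of intermediate tiles with gaps under 10 kb held 121 tiles, and 5 of the runs had 3 tiles. In the run inside Hspg2, which encodes the basement membrane proteoglycan perlecan, the unrestricted levels were 30.5% ± 2.35, 26.8% ± 8.29 and 32.7% ± 7.57 and the restricted ones 31.8% ± 13.5, 18.7% ± 7.93 and 37.5% ± 5.24. These 3 tiles did not move together.

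Between the diets the levels of the intermediate tiles were nearly the same. Averaged over the 1460 tiles, restricted libraries 1 to 4 were at 40.0%, 37.8%, 40.0% and 40.1%, and unrestricted libraries 1 to 4 at 39.9%, 41.2%, 39.5% and 40.1%. Restricted library 2 was the lowest of all, unrestricted library 2 was the highest, and the other 6 lay within a point of each other. The group means were 39.5% ± 1.13 restricted and 40.2% ± 0.735 unrestricted, a difference of -0.686 percentage points. No p is given, since the unrestricted values chose the tiles. Without restricted library 2 the difference was -0.122 points. That library was the lowest of the 8 in 357 tiles (24.5%), against 84 to 218 tiles for each of the others. Its reads over all shared CpGs leaned to unmethylated CpGs, with a read-weighted minus unweighted mean of -3.28 points, as did those of restricted library 1 (-2.24), against -0.575 to 0.817 in the other 6. Within the intermediate tiles this measure was -0.199 in restricted library 2 and 0.256 or more elsewhere. Restricted library 2 also had the fewest reads per tile, a median of 68 where the other libraries had 76 to 164. The part of these features in the difference was not tested. Without restricted libraries 1 and 2 the difference was -0.0944 points.

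**Figure D2:**
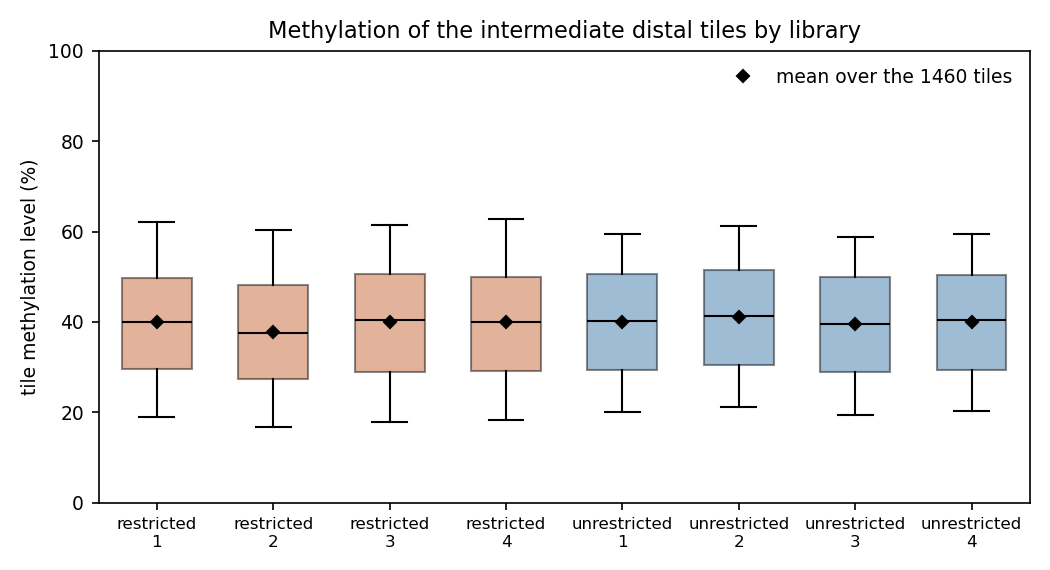
Methylation level (%) of the 1460 intermediate distal tiles in each of the 4 restricted (orange) and 4 unrestricted (blue) libraries. Boxes give the quartiles and the median, whiskers the 5th and 95th percentiles, and diamonds the mean, which was lowest in restricted library 2 (37.8%).

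Over single tiles the differences went both ways. Of the 1460 tiles, 815 were lower and 645 higher in the restricted group, with a median difference of -0.658 points and 5th and 95th percentiles of -8.44 and 6.88 points. Over all 33897 tested tiles the median was -0.0116 points. Most tiles kept their class: the restricted mean was also at 20% to under 60% in 1329 (91.0%), below 20% in 69 and at 60% or more in 62. All 8 libraries lay in the range in 819 tiles (56.1%). Just inside the lower limit were tiles in Maml3 (20.1% ± 3.77), Abca4 (20.1% ± 7.5) and Zhx2 (20.1% ± 3.75). Just outside it were tiles 102 kb from Dffb (20.0% ± 1.84), in Snx18 (20.0% ± 3.32) and far from Olfm4 (19.9% ± 2.04). At the upper limit, tiles in Tmtc2, Cacna2d4 and Gdpd1 were at 59.96% ± 4.67, 59.96% ± 7.44 and 59.9% ± 3.64, and tiles in Col4a2, Abhd2 and Draxin at 60.05% ± 2.16, 60.06% ± 7.47 and 60.06% ± 3.42 fell outside. Tiles on either side of a limit thus differed by far less than their spread over libraries.

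The median SD over the 4 unrestricted libraries was 4.58 points, where counting error alone gives 4.26, and over the restricted libraries 5.45 against 5.05. The median tile had 4 measured CpGs and 113 reads per library, a read being counted for each CpG it covers. Dispersion, the variance between libraries relative to that of binomial counts, had a median of 1.40 in the intermediate tiles, 1.34 in distal tiles below 20% and 1.13 in those of 60% or more. It exceeded 2 in 33.4% of the intermediate tiles and 5 in 68 of them (4.66%). Reads that cover several CpGs are not independent, so counting errors are lower limits.

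Among the 189 tiles with a mean of at least 200 reads per library, the largest dispersions belonged to Kcp, Impact and Acvr2b. Kcp encodes a secreted protein that enhances BMP signalling, Impact is an imprinted gene, and Acvr2b encodes an activin receptor. The Impact tile (chromosome 18, 12973001 to 12974000; 19 CpGs) had 2.14%, 10.7%, 34.1% and 8.65% in restricted libraries 1 to 4 and 30.2%, 32.5%, 18.7% and 14.2% in unrestricted libraries 1 to 4. Its groups overlapped, and restricted library 3 was the highest of all. The Acvr2b tile (chromosome 9, 119418001 to 119419000; 10 CpGs) had 20.1%, 57.4%, 30.2% and 40.3% restricted and 37.8%, 27.7%, 51.6% and 61.1% unrestricted, so that single libraries of either group stood at both ends of the range. The smallest dispersions belonged to tiles in Rasal1 and Slc9a3r1 and to one 377 kb from Sftpd. In the Rasal1 tile, a gene for a Ras GTPase-activating protein, the levels were 58.9% ± 1.42 unrestricted and 54.1% ± 1.40 restricted, and the groups did not overlap (unadjusted p = 0.0796 in the model across all tiles, adjusted p = 0.773). The tile of most CpGs, 22 of them in Atxn1, was at 20.98% ± 2.11 and 21.6% ± 1.53.

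No intermediate tile passed the diet test, a logistic model of methylated reads across all 33897 tiles with moderated dispersion, at an adjusted p under 0.05. The smallest adjusted p was 0.113. Over all tiles 6 were called (0.0177%). At an unadjusted p under 0.05 there were 135 intermediate tiles (9.25%), 95 lower and 40 higher with restriction, where all tiles gave 6.32% (3.32% lower and 3.00% higher). The 4 libraries of one diet lay wholly apart from the 4 of the other in 57 intermediate tiles (3.90%), 36 lower and 21 higher, where all tiles gave 2.26% (1.26% lower and 0.997% higher). The levels that chose the tiles belong to the same comparison, and tiles near 0 or 100% have little room to differ, so nothing is read from these shares. With limma on M-values the number called was also 0. With edgeR's quasi-likelihood test it was 8, all lower, where edgeR called 0.325% of all tiles (0.189% lower).

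**Figure D3:**
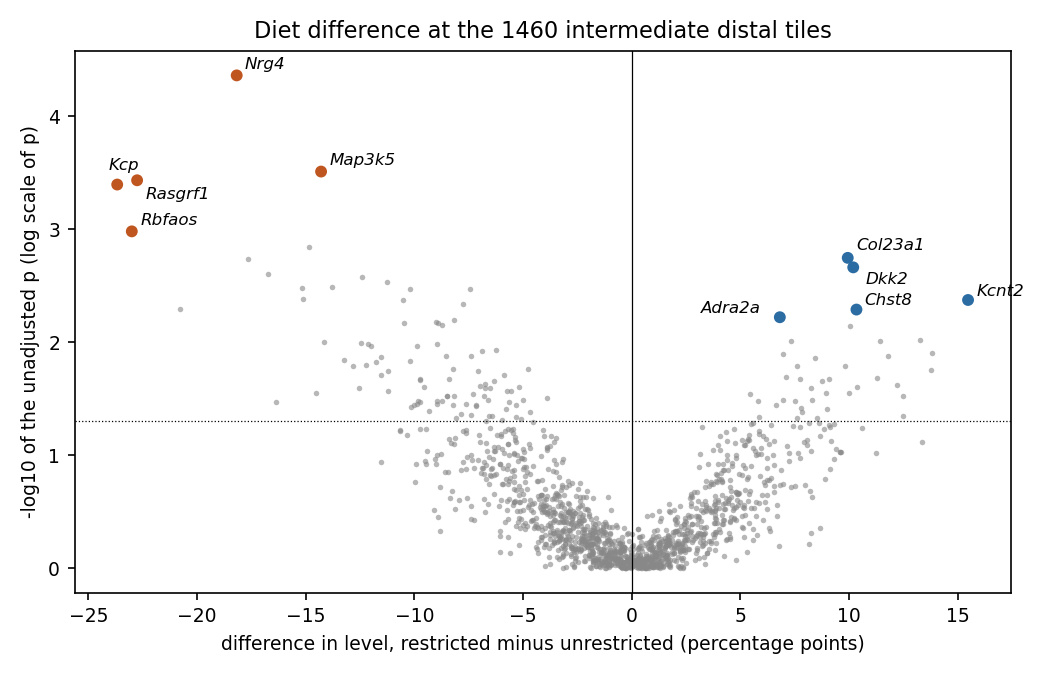
Each point is 1 of the 1460 intermediate distal tiles, with the difference in methylation level (restricted minus unrestricted, percentage points) against -log10 of the unadjusted p of the logistic model. The dotted line marks an unadjusted p of 0.05. The tiles of smallest p in each direction are named, and none was called after adjustment.

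The lower tile of smallest p lay in Nrg4, which encodes neuregulin 4, a ligand of the ErbB4 receptor (chromosome 9, 55242001 to 55243000; 5 CpGs; 79 to 187 reads per library). Its levels were 20.7%, 20.9%, 16.2% and 29.1% in the restricted and 41.5%, 46.5%, 28.9% and 42.7% in the unrestricted libraries. Only restricted library 4 and unrestricted library 3 overlapped, by less than a point. The means were 21.7% ± 5.39 and 39.9% ± 7.66, a difference of -18.2 points (adjusted p = 0.113 in the logistic model). All 5 CpGs, which share most of their reads, had lower restricted means. The one at 55242325 went from 43.9% to 18.1% (adjusted p = 0.0977 over all CpGs in the same model). Leaving out 1 library at a time, the difference of the tile was -21.9 to -16.0 points and no fit passed the threshold.

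Map3k5, also known as ASK1, is a kinase of the stress response, and the tile in its gene body (chromosome 10, 20133001 to 20134000; 5 CpGs; 66 to 228 reads) had the next smallest p. Restricted libraries were at 13.6%, 3.03%, 6.35% and 4.81% and unrestricted ones at 17.0%, 21.01%, 21.8% and 25.1%. The groups did not overlap, and restricted library 1 came closest to the unrestricted ones. The difference was -14.3 points (adjusted p = 0.303 in the logistic model), and without restricted library 1 it was -16.5 points and called (adjusted p = 0.0336).

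The next lower tile by p lay 30.5 kb from Rasgrf1 (chromosome 9, 89878001 to 89879000; 3 CpGs; 35 to 102 reads). Rasgrf1 encodes an exchange factor of Ras and is imprinted under the control of a methylated region upstream of the gene. Restricted libraries had 11.7%, 25%, 33.3% and 37.1%, and unrestricted libraries 53.3%, 53.3%, 48.0% and 43.5%. The groups did not overlap, and restricted library 1 was far below the others. The means were 26.8% ± 11.3 and 49.5% ± 4.75 (adjusted p = 0.303 in the logistic model). The 9 fits that left out libraries gave differences of -26.2 to -14.3 points and adjusted p of 0.157 to 0.841, and none was called. Each of the 3 CpGs of the tile was lower in the restricted group, with means of 22.9%, 33.4% and 24.2% against 43.7%, 61.1% and 43.8%. A second intermediate tile lay 23508 bp from the gene (89885001 to 89886000; 6 CpGs), at 23.3% ± 7.94 restricted and 26.8% ± 3.67 unrestricted. There the CpGs at 89885782 and 89885886 were at 0% in all libraries while the CpG at 89885821, between them, was at 41.3% unrestricted and 39.8% restricted.

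The tile in Kcp (chromosome 6, 29496001 to 29497000; 21 CpGs; 434 to 1216 reads) had the most reads of all intermediate tiles. Levels were 9.62%, 7.28%, 8.05% and 16.1% in the restricted libraries and 20.4%, 16.6%, 48.6% and 50.1% in the unrestricted ones. The groups did not overlap, but unrestricted libraries 1 and 2 were close to the restricted ones and unrestricted libraries 3 and 4 far above. The means were 10.3% ± 4.02 and 33.9% ± 17.9, a difference of -23.7 points (dispersion 70.9; adjusted p = 0.303 in the logistic model). Without unrestricted library 2 it was -29.5 points and called (adjusted p = 0.0100). That was the only call in the 9 fits that left out libraries, which gave -29.5 to -18.3 points and adjusted p up to 0.841. With edgeR's test the adjusted p was 1.86e-09.

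The fifth lower tile lay 16.2 kb from Rbfaos, a non-coding antisense gene (chromosome 18, 80169001 to 80170000; 3 CpGs; 36 to 132 reads). It was at 20.5%, 22.2%, 45.5% and 18.8% in the restricted and 46.5%, 59.8%, 42.7% and 50% in the unrestricted libraries. Restricted library 3 lay among the unrestricted ones, and without it the difference went from -23.0 points (adjusted p = 0.422 in the logistic model) to -29.2 points and was called (adjusted p = 0.0259). Again 1 of the 9 fits that left out libraries was called, with differences of -29.2 to -17.6 points and adjusted p up to 0.841. The tiles in Nrg4, near Rasgrf1, in Map3k5, in Kcp and near Rbfaos are the 5 lower tiles of smallest p. These 5 tiles were among the 8 that edgeR's test called. The other 3 lay 39794 bp from Tgm3 (26.0% unrestricted and 11.1% restricted), 145570 bp from Slc4a3 (45.3% and 24.6%) and 31664 bp from Dancr (41.0% and 23.4%).

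Of the 5 higher tiles of smallest p, the tile nearest to Kcnt2 differed by 15.5 points (adjusted p = 0.705 in the logistic model) and is described with its CpGs below. The tile in Col23a1, which encodes a transmembrane collagen (chromosome 11, 51429001 to 51430000; 5 CpGs; 85 to 219 reads), had 34.8%, 29.4%, 33.1% and 32.3% in the restricted and 24.0%, 28.3%, 20.5% and 17.1% in the unrestricted libraries. Its groups did not overlap, and the difference was 9.94 points (adjusted p = 0.542 in the logistic model). The tile 46.3 kb from Dkk2, a secreted modulator of Wnt signalling, lay inside a non-coding gene model (chromosome 3, 132038001 to 132039000; 6 CpGs). It had 42.7%, 37.9%, 40.6% and 34.5% restricted and 31.0%, 33.2%, 27.8% and 23.0% unrestricted, again without overlap (10.2 points; adjusted p = 0.559). In Chst8, a sulfotransferase of hormone sugar chains (chromosome 7, 34748001 to 34749000), the means were 41.9% ± 7.60 and 31.5% ± 4.26, and restricted library 4, at 30.8%, lay among the unrestricted ones. The tile 65.0 kb from Adra2a, an adrenergic receptor (chromosome 19, 54114001 to 54115000), was at 48.8% ± 3.03 and 42.0% ± 3.23. There unrestricted library 4, at 46.8%, overlapped the restricted group.

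**Figure D4:**
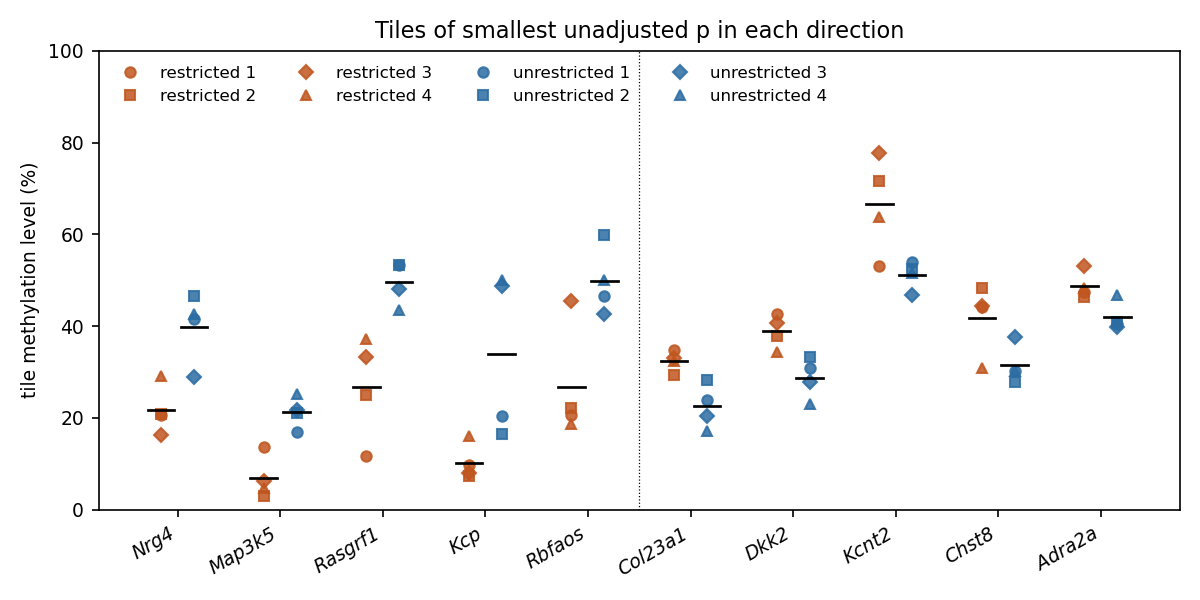
Methylation level (%) of the 5 lower (left) and 5 higher (right) tiles of smallest unadjusted p. Each is named by the gene that holds the tile or is nearest to it, passing over unnamed gene models, which can be closer. Each symbol is 1 library (orange restricted, blue unrestricted) and black lines are group means; at Kcp, unrestricted libraries 3 and 4 stand at 48.6% and 50.1% and the other 6 at 7.28 to 20.4%.

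Single CpGs of the intermediate tiles gave a few calls. Of 6440 tested CpGs, 19 (0.295%) had an adjusted p under 0.05 in the logistic model over all 191637 CpGs, of which 0.0997% were called. Of the 19, 12 were lower and 7 higher, where all CpGs gave 0.0261% lower and 0.0736% higher. They lay in only 7 tiles, with 11 in Kcp, 3 in the tile 405 kb from Kcnt2 and 1 in each of 5 further tiles. All 11 Kcp calls were lower, and they share 23 to 75 reads per library, so they are not independent. Without the CpGs of the Kcp tile 8 calls were left. Without unrestricted library 3 or 4, 14 and 10 of the 19 calls remained, and without restricted libraries 1 and 2 together 13 did. Each of the other 6 fits that left out 1 library kept at least 18. With limma on M-values no member CpG was called, and edgeR's test called 15, where it called 92 of all 191637 CpGs.

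The Kcp CpGs of smallest p were those at 29496553, 29496564 and 29496515. At 29496553 the restricted libraries had 6.67%, 0%, 4.08% and 8.00% and the unrestricted ones 23.5%, 17.6%, 47.5% and 48.0% (adjusted p = 1.45e-04 in the logistic model). At 29496564 the means were 7.38% ± 3.38 restricted and 38.0% ± 20.8 unrestricted (adjusted p = 8.75e-04), and at 29496515 they were 7.27% ± 8.57 and 34.4% ± 19.5. All 3 were called in each fit that left out 1 library and in the fit without restricted libraries 1 and 2. The pattern of the whole tile was seen at each of them, with unrestricted libraries 3 and 4 well above unrestricted libraries 1 and 2.

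The tile 405 kb from Kcnt2, which encodes a sodium-activated potassium channel, combined high and zero CpGs (chromosome 1, 141019001 to 141020000; 7 CpGs; 99 to 273 reads). Of its 7 CpGs, those at 141019263, 141019337, 141019345 and 141019376 had group means of 84.9 to 97.1%. The CpGs at 141019274, 141019301 and 141019354, which lie among them, were at 0% in all 4 unrestricted libraries (0 of 133 reads at each, which allows a level of up to 2.26%) and in restricted library 1 (0 of 29 or 30 reads, up to 10.3%). In restricted libraries 2, 3 and 4 the CpG at 141019274 was at 33.3%, 45.5% and 23.5%. The other two had 46.7%, 54.5% and 17.6%, and 30.8%, 54.5% and 29.4%. Exact binomial 95% intervals of these values were wide, from 9.09 to 61.4% for the 30.8% of restricted library 2, for example, and they cover counting error only. All 3 were called (adjusted p of 0.00123 to 0.00215 in the logistic model), also in each of the fits without 1 library. A CpG that is TpG in some of the mice would also be read as unmethylated. The part of sequence variants at these CpGs was not tested. For the tile as a whole the levels were 53.1%, 71.7%, 77.8% and 63.9% restricted and 54.0%, 52.4%, 46.7% and 51.5% unrestricted, and restricted library 1 lay within the unrestricted range.

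**Figure D5:**
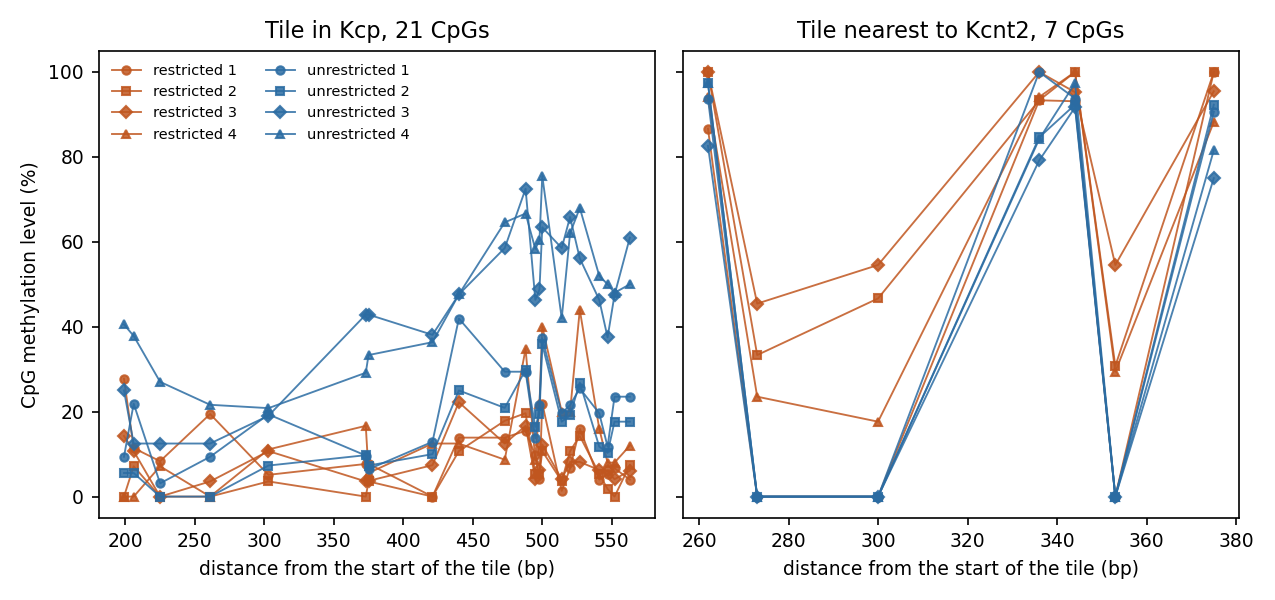
Methylation level (%) of each measured CpG by its distance (bp) from the start of the tile, for the Kcp tile (left) and the tile nearest to Kcnt2 (right), with 1 line per library (orange restricted, blue unrestricted). At Kcp, unrestricted libraries 3 and 4 run above the rest; near Kcnt2, 3 CpGs are at 0% except in restricted libraries 2, 3 and 4.

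The remaining 5 called CpGs are named because there were few, after their values were seen. The CpG at 122552920 of chromosome 5, in Ift81, a component of cilium transport, was at 79.4% ± 8.93 restricted and 52.2% ± 15.4 unrestricted, and its call held in each fit that left out 1 library. In Arsb, a lysosomal sulfatase (chromosome 13, 93807836), the levels were 89.9% ± 4.27 and 74.1% ± 3.06 without overlap. Without restricted library 4 that call was lost (13.8 points, adjusted p = 0.0509). The CpG nearest to Sox14 (chromosome 9, 99904782) was at 36.7% ± 15.4 and 8.33% ± 12.6, and without unrestricted library 4 its difference was 25.5 points (adjusted p = 0.0700). A CpG in the tile 446148 bp from Tusc1 (chromosome 4, 92887274) was at 13.3% ± 6.52 in the restricted group and 0% in the unrestricted one (0 of 121 reads, up to 2.48%). Its call was lost without unrestricted library 1, 3 or 4 (adjusted p of 0.0581 to 0.0873 in the logistic model). In Map4 (chromosome 9, 110052234) the levels were 43.4% ± 15.4 and 75.8% ± 5.10, and of the 8 fits that left out 1 library 4 lost the call, those without restricted library 1, without restricted library 3, and without unrestricted library 3 or 4 (adjusted p of 0.0654 to 0.124). Without restricted libraries 1 and 2 together, the calls near Sox14 (20.0 points; adjusted p = 0.124 in the logistic model), near Tusc1 (12.2 points; adjusted p = 0.0576) and in Map4 (-29.5 points; adjusted p = 0.216) were lost as well, and those in Ift81 and Arsb held.

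Genes of kidney development and of signalling were looked at through 14 lists, of which 72 genes had 104 intermediate tiles. The logistic model called none of these tiles. edgeR's test called 2 of the 104, those of Kcp and Rasgrf1, where it called 110 of all 33897 tiles (0.325%). An unadjusted p under 0.05 in the logistic model was reached by 10 (9.62%), against 9.25% of the intermediate tiles and 6.32% of all tiles. Among genes of nephron progenitor identity there were 6 intermediate tiles of 51 distal ones (11.8%, against 14.2% over all distal tiles), at Dpf3, Fgf9, Mycn and Ncam1. They were at 20.4 to 58.0% unrestricted, and 5 of 6 were lower with restriction (median -2.28 points, against -0.658 over the 1460). Ncam1, a cell adhesion molecule of the progenitors and early nephrons, had the smallest p of the list. Its tile (chromosome 9, 49606001 to 49607000; 3 CpGs; 30 to 93 reads) had 39.2%, 44.4%, 32.1% and 40.0% restricted and 50%, 54.8%, 46.3% and 54.5% unrestricted. The groups did not overlap (-12.5 points; adjusted p = 0.737 in the logistic model). The tiles of the chromatin factor Dpf3 were at 32.4% ± 4.90 and 41.3% ± 5.40 unrestricted and 29.6% ± 13.1 and 39.2% ± 9.12 restricted.

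The early differentiation genes had 12 of 60 distal tiles in the range (20.0%), of which 5 were lower and 7 higher (median 1.80 points, smallest adjusted p 0.773). A tile in the cell cycle gene Ccnd2 was at 57.0% ± 1.41 unrestricted and 51.2% ± 8.69 restricted. A tile 7500 bp from Wnt4, the signal that starts nephron formation, was at 35.8% ± 3.67 and 38.1% ± 7.22, which overlapped. Ureteric bud genes had 6 of 25 distal tiles in the range, at Ret, Spry1 and Wnt7b, with a median of -0.626 points. The tile in Ret, the receptor of the bud, was at 54.2% ± 6.64 and 50.2% ± 4.06. Stroma had 5 of 38 (median 4.19 points), podocytes 5 of 42 (4.21), tubule 1 of 7, in Ass1 (-1.003), and endothelium 3 of 21, all higher (3.60). Blood genes had 5 of 18, all lower (-3.11), in or near Ptprc and Runx1. In the tile in Runx1 that came closest to the threshold, levels were 58.7% ± 5.69 and 52.5% ± 6.60 (adjusted p = 0.773 in the logistic model). The share of other cells in the sorted samples was not tested.

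Wnt signalling genes had 26 of 71 distal tiles in the range (36.6%, against 14.2% over all distal tiles), and no test of that share was made. Of the 26, 15 were lower and 11 higher with restriction, with a median of -0.846 points. Ligand genes with such tiles were Wnt3 (23.4% ± 4.10 unrestricted), Wnt4, Wnt7a (42.0% ± 3.42 and 31.1% ± 5.34) and Wnt7b (24.8% ± 1.78, 41.0% ± 5.88 and 28.2% ± 3.98). Receptor genes were Ror2 with 3 tiles, Ryk, Lgr5 and Lgr6. At Lgr5, a receptor of R-spondins, a tile 76221 bp away was at 26.5% ± 8.94 unrestricted and 18.7% ± 4.33 restricted. Inhibitors were Dkk2, Kremen1, Axin2 and Rnf43, of which the tile near Dkk2 was described above. The transcription factor genes Tcf7l1, Tcf7l2 and Lef1 had 9 tiles between them. In Lef1 the level was 56.8% ± 6.41 unrestricted and 64.9% ± 4.86 restricted. In Tcf7l2 the 4 tiles inside the gene were at 23.6 to 56.8%, so that intermediate levels varied widely along the same gene.

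Genes of FGF, BMP and TGF-beta signalling had 14 of 75 distal tiles in the range (18.7%), of which 6 were lower and 8 higher (median 0.921 points). Beside Kcp, the smallest p belonged to a tile 18075 bp from the receptor gene Tgfbr1, at 55.3% ± 6.22 unrestricted and 67.6% ± 12.2 restricted (unadjusted p = 0.0237 in the model across all tiles, adjusted p = 0.766). Nutrient and insulin sensing genes had 8 of 43, with 4 lower and 4 higher (median 0.0181 points). A tile 249892 bp from Foxo1, a transcription factor held back by insulin, was at 55.9% ± 4.44 and 63.0% ± 3.37, and the tile in Ppargc1a, a coactivator of mitochondrial genes, at 51.7% ± 3.96 and 58.0% ± 8.04. Homeobox and T-box genes had 15 of 92 (16.3%; median -1.24 points). Near Nkx6-1 (82184 bp) the level was 23.9% ± 8.42 unrestricted and 13.4% ± 2.90 restricted, and near Pitx1 (79811 bp) it was 41.0% ± 3.13 and 31.3% ± 5.37, without overlap. Neither was called (adjusted p = 0.705 or more in the logistic model).

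Imprinted genes had 6 of 33 distal tiles in the range (18.2%; 3 lower and 3 higher; median -0.624 points), at Rasgrf1, Impact, Ddc, Kcnq1 and Trappc9. The tile in Ddc, which makes dopamine and serotonin, was at 38.6% ± 0.931 unrestricted and 43.2% ± 4.40 restricted, and the tile in the potassium channel gene Kcnq1 at 39.9% ± 1.48 and 42.3% ± 9.55. Genes of the methylation machinery had 5 of 18 (27.8%; median -0.603 points). In Dnmt3a, the de novo methyltransferase, the levels were 23.7% ± 5.53 and 23.0% ± 8.56. In Mbd2, a reader of methylated DNA, they were 51.2% ± 6.18 and 42.2% ± 4.51 (unadjusted p = 0.0353 in the model across all tiles, adjusted p = 0.773), and in Tet2, a methylcytosine oxidase, 45.3% ± 1.78 and 45.9% ± 7.91. The lists were chosen with results of these data known, so their counts are descriptions.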

How the data were processed

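Bisulfite sequencing was done on 8 libraries of sorted nephron progenitors. The tools in the submitters' processing notes are Bismark 0.13.1, Trim Galore 0.3.3, methylKit, FastQC and cutadapt, on mm10, without settings. The deposited files give, per CpG cytosine and strand, the count of reads and the percent methylated and unmethylated, as the authors computed them. The count times the percent, rounded, gave methylated reads. Both strands were added, and CpGs read at least 10 times in every library were summed in 1 kb tiles. A level is methylated over total reads, so deeply read CpGs weigh more.

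The diet test was a logistic model with a likelihood-ratio F test and a Pearson dispersion moderated as in limma's squeezeVar, rewritten in Python (floor 1), adjusted by Benjamini-Hochberg over all 33897 tiles or 191637 CpGs and tested on simulated data. edgeR 4.0.16 and limma 3.58.1 were alternatives. Gene ends came from a RefSeq table (GRCm38.p6, 47042 genes), which matched 463 of 468 listed genes. The 14 lists were nephron progenitor identity, early differentiation, podocyte, tubule, ureteric bud, blood, stroma, endothelium, imprinted, Wnt, FGF with BMP and TGF-beta, nutrient sensing, homeobox with T-box, and methylation machinery. Named tiles were the 5 of smallest p per direction, the 3 of largest and of smallest dispersion, the 3 with most CpGs and with most reads, those next to the limits, the genes of most tiles, up to 3 tiles per list by closeness to a listed gene (tiles inside a gene tie, and the smaller p went first), up to 3 called CpGs per direction and 2 of the longest runs, which tie at 3 tiles. Other tiles of the lists are named after their values were seen. Members and lists were chosen with earlier results of these data known. A progenitor marker of the lists is not reported here.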

Additional observations from a re-analysis of the deposited data

Results flagged for a closer look

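In 10 of 156 groups of 4 libraries looked at, 1 library stood apart from the other 3 by Dixon's test for 4 values; chance gives about 1 in 20. Over the mean of all intermediate tiles, restricted library 2 was at 37.8% and the other restricted libraries at 40.0 to 40.1%.

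Restricted library 3 was at 45.5% in the tile near Rbfaos (others 18.8 to 22.2%), restricted library 4 at 46.1% in the tile in Tbx5 (37.9 to 38.8%), and restricted library 1 at 6.83% in the tile of Hspg2 at 137484001 (22.2 to 23.0%). At single CpGs, restricted library 4 was at 20.0% at 29496515 of Kcp (1.35 to 4.08%) and at 21.7% at 29496499 (4.17 to 6.25%), and restricted library 1 was at 59.6% at the CpG nearest to Sox14 (26.7 to 30.3%).

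In the unrestricted group, library 4 was at 46.8% in the tile near Adra2a (39.8 to 40.8%). Library 3 was at 40.0% in the tile in Ddc (38.1 to 38.2%) and at 69.5% at the CpG in Arsb (75.3 to 76.0%).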

How the results depend on the processing

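No intermediate tile was called in the full model, and limma on M-values called 0 intermediate tiles, 0 tiles in all, 0 CpGs of intermediate tiles and 0 CpGs in all, against 0, 6, 19 and 191. edgeR's test called 8 intermediate tiles, 110 tiles and 92 CpGs in all. Where only well covered units set the dispersion prior, 1 tile in all, 9 CpGs of intermediate tiles and 102 CpGs were called. With the replicate number as a block (replicate block) 0 tiles, 0 CpGs of intermediate tiles and 0 CpGs in all were called. Whether same-numbered libraries belong together is not labelled. Their deviations correlated at -0.063 to 0.016, but counting error makes up most of these deviations, so pairing could not be decided from this. Leaving out 1 library at a time gave 0 to 1 intermediate tiles, 0 to 24 tiles, 10 to 54 CpGs of intermediate tiles and 134 to 746 CpGs in all, and a mean difference of -0.922 to -0.122 points. Without restricted libraries 1 and 2 together 673 CpGs were called. At 5 reads per CpG 2 tiles were called, and at 20 reads 2 tiles, 10 CpGs of intermediate tiles and 103 CpGs. Without CpGs of extreme coverage 121 CpGs were called, and without the CpGs of the Kcp tile 8 CpGs of intermediate tiles (chosen after seeing the data). With distances to protein-coding genes only, 1 intermediate tile was called, in Ntrk2 (chromosome 13, 59074001 to 59075000; 29.5% ± 3.89 unrestricted and 14.6% ± 3.36 restricted; adjusted p = 0.0411 in the logistic model). Leaving out 1 library at a time, the difference went up to 1.40 points in the Atxn1 tile, 1.04 in the tile nearest to Sftpd and 2.34 in the tile nearest to Serhl. It turned negative in the Atxn1 tile without restricted library 2 (-0.109) or unrestricted library 4 (-0.209), in the tile nearest to Sftpd without restricted library 4 (-0.164), and in the tile nearest to Serhl without restricted library 4 (-0.360) or unrestricted library 1 (-0.992). The cause of these changes was not tested. Other choices of reads, CpGs per tile, tile grid, levels and distances left the mean difference negative, at -0.925 to -0.397 points. With medians of 68 to 164 reads per tile, differences of a few points at single tiles may have been missed. The smallest detectable difference was not determined. Far larger differences also went uncalled in the logistic model, such as -18.2 points in the Nrg4 tile (adjusted p = 0.113) and -22.8 points near Rasgrf1 (adjusted p = 0.303). The absence of a call therefore does not exclude differences of that size.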
